A study of Mus musculus with 16 samples.

Results

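The genes described here are 10 markers of disease-associated microglia (DAM), the state that microglia take around amyloid, damaged myelin and other lesions: *Apoe*, *Trem2*, *Tyrobp*, *Cst7*, *Lpl*, *Axl*, *Itgax*, *Clec7a*, *Cd9* and *Spp1*. They were taken by gene symbol from the count matrices, and 9 of the 10 had counts among 32285 genes. *Clec7a* was not analysed here. Their unique molecular identifiers (UMIs, each standing for 1 captured RNA molecule) were summed per library within microglia and within other marker-defined cell classes.

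DAM are known to form in steps. Early steps raise the lipid carrier *Apoe* and the adaptor *Tyrobp*, and the later program, with the lipase *Lpl*, the cystatin *Cst7*, the receptor *Axl* and the integrin *Itgax*, depends on the lipid-sensing receptor TREM2, which signals through TYROBP. Homeostatic genes fall as the DAM program rises. Type I interferon drives another microglial state, with which DAM share *Axl* and genes of antigen presentation.

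Single nuclei were profiled from the hippocampus of male mice in 16 libraries. The 4 groups of 4 libraries were C57BL/6 wild-type (WT) mice given vehicle, WT mice given DMXAA, and *Ifnar1*-/- (KO) mice given vehicle or DMXAA. DMXAA is an agonist of mouse STING, given by repeated intraperitoneal injection, and *Ifnar1* encodes a subunit of the type I interferon receptor. The KO mice, 3 months and 3 days old, were older than the WT mice, at 2 months and 23 days, and genotype cannot be told apart from age. The question put to these data was whether STING activation moved the DAM genes, and whether it did so without the interferon receptor.

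After filtering, 111068 nuclei remained, 5267 to 9417 per library. A single cluster of 4823 nuclei was microglia-like, with all 10 microglial markers detected in every library. It held 217 to 399 nuclei and 409875 to 863990 UMIs per library, and any pair of libraries shared 5 to 23 cell barcodes. Levels are given as CPM, the UMI count scaled to an equal total for each library. *Ifnar1* was read over all nuclei at 16.8 to 18.7 CPM in WT vehicle and 10.8 to 11.9 CPM in KO vehicle libraries, a 3′ count that does not check the disrupted part of the gene. WT DMXAA replicate 3 stood apart. It held 115 of the 363 border macrophage nuclei of the whole series, it had the lowest *Apoe* level of the WT libraries in all 7 classes fitted, and the summed level of 12 interferon-stimulated genes in its microglia was 1742 CPM, against 2655, 2962 and 5740 CPM in the other libraries of its group and 358 to 491 CPM in the WT vehicle group. Its microglial sum also held more neuronal marker RNA, with 590 CPM of 7 excitatory markers against 140 to 203 CPM in the other WT DMXAA libraries, and 372 CPM of 8 inhibitory markers against 55.7 to 71.4 CPM. The part of these markers in its low member levels was not tested. WT changes of the members tested in microglia are given with and without this library.

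On the mouse genome build GRCm38, 4 of the 9 members lie on chromosome 7. *Apoe* spans 19696109 to 19699188 there, *Axl* 25757273 to 25788705, *Tyrobp* 30413760 to 30417585 and *Itgax* 128129547 to 128150657. *Cd9* lies on chromosome 6 at 125460266 to 125494791, *Trem2* on chromosome 17 at 48346401 to 48354147 and *Cst7* on chromosome 2 at 150570415 to 150578944. *Lpl* lies on chromosome 8 at 68880491 to 68907448 and *Spp1* on chromosome 5 at 104435118 to 104441050. All are protein-coding genes, and reads on introns as well as exons were counted over these spans.

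*Axl* was the member called after DMXAA, and *Ifi207*, of the interferon-inducible PYHIN family, was among the genes whose microglial level over libraries was most like it. The 250 bases before each start site (RefSeq, GRCm38.p6) are shown to set a called DAM gene beside an interferon-inducible one. *Axl* is read from the minus strand of chr7:25788734-25788983 and *Ifi207* from the minus strand of chr1:173741810-173742059. Capitals mark the core of the interferon-stimulated response element, GAAA, 2 bases of any kind and GAAA, searched on both strands.
Axl: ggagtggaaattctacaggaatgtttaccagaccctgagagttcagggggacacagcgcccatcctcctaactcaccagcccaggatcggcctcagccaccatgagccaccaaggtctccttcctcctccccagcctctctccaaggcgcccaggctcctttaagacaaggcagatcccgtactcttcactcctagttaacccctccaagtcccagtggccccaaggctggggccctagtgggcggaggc
Ifi207: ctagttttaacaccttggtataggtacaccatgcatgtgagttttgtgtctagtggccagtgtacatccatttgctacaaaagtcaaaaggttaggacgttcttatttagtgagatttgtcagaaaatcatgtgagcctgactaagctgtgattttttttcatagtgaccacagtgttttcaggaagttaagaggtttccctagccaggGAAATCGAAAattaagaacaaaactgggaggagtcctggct
The letters occur once before *Ifi207*, 41 bases ahead of its start, and are not in the *Axl* window. They are also absent from the windows of *Tap1* and *Zc3hav1*, whose microglial levels were also among those most like *Axl*. In 250-base windows before the start they occur in 2.98% of 32851 windows, and before 5 of the 8 interferon-stimulated check genes that had a window. In 300-base windows, which also hold the first bases of the gene, they occur in 3.44% of windows and in 1 of the 12 windows of members, that of *Spp1*. A match is a description and not a bound site. RefSeq start-site windows were found for 8 of the 10 names, and not for *Tyrobp* and *Lpl*.

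The members did not share a cell class in WT vehicle tissue. Levels and their order are given over the 7 classes fitted, which leave out border macrophages, with 4 to 10 nuclei in each of these libraries. Those few nuclei gave 31 to 150 UMIs of *Apoe*, 1 to 6 of *Trem2* and 1 to 3 each of *Tyrobp* and *Axl* per library, or 54.1 to 145 CPM of *Axl*, 1338 to 8110 CPM of *Apoe*, 86.3 to 327 CPM of *Trem2* and 54.1 to 291 CPM of *Tyrobp*. *Trem2* was read at 328 ± 16.7 CPM in microglia (SD, n = 4, as for the levels that follow), and its mean was at most 2.93 CPM in the other classes fitted. *Tyrobp* had 157 ± 42.9 CPM in microglia and at most 1.43 CPM in the other classes fitted. For both, the lowest microglial library was above every library of the 6 other classes fitted, while the ranges in border macrophages overlapped those in microglia.

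Among the classes fitted, *Apoe* was highest in astrocytes, at 3637 ± 546 CPM, and next in fibroblasts, at 940 ± 205 CPM. Oligodendrocyte precursors, oligodendrocytes and microglia followed, at 691 ± 89.7, 576 ± 141 and 364 ± 49.4 CPM, and the libraries of neighbours among these classes overlapped. Inhibitory and excitatory neurons were lowest, at 73.2 ± 12.7 and 61.5 ± 14.5 CPM, and overlapped as well. *Axl*, a receptor tyrosine kinase for the clearance of apoptotic cells, was highest among these classes in astrocytes and fibroblasts, at 47.8 ± 3.43 and 29.9 ± 19.5 CPM, against 2.76 ± 1.61 CPM in microglia. Over all groups, astrocytes held 64.1% of *Apoe* UMIs and 66.8% of *Axl* UMIs, and microglia 1.97% and 3.3%.

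*Cd9*, a tetraspanin, had 226 ± 30.9 CPM in microglia, against 175 ± 15.3 CPM in oligodendrocyte precursors and 173 ± 18.4 CPM in oligodendrocytes. The lowest microglial library, at 198.8 CPM, was above every precursor library and below the highest oligodendrocyte library, at 199.1 CPM. *Spp1*, which encodes osteopontin, had 87.0 ± 60.4 CPM in fibroblasts and 0.804 ± 1.61 CPM in microglia. *Lpl* was read at means of 1.38 to 4.28 CPM over the 7 classes, highest in excitatory neurons. *Cst7* and *Itgax* had 3 UMIs each among the 2580010 UMIs of WT vehicle microglia, and *Itgax* had no UMI in 5 of the 6 other classes of these libraries.

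**Figure D1:**
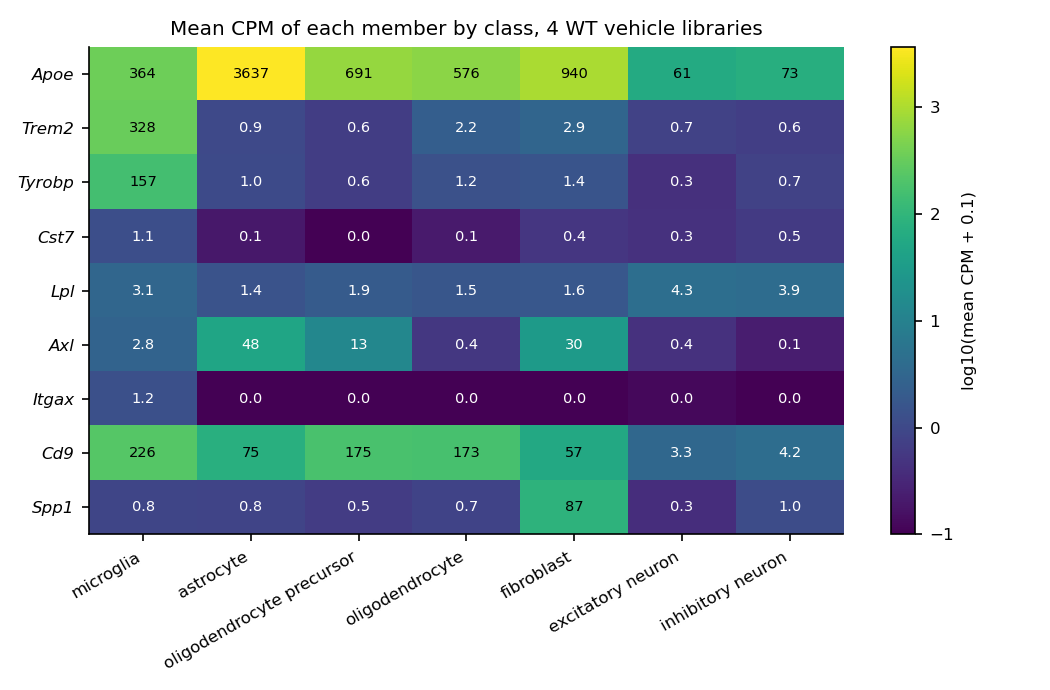
Mean CPM of each of the 9 members (rows) in the 7 classes fitted (columns) over the 4 WT vehicle libraries, printed in each cell and coloured on a log10 scale after adding 0.1. *Trem2* and *Tyrobp* stand out in microglia, *Apoe* and *Axl* are highest in astrocytes and *Spp1* in fibroblasts.

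DMXAA raised *Axl* in WT microglia, and no other member was called. Of the 9 members, 5 passed the filter on low counts (*Apoe*, *Axl*, *Cd9*, *Trem2* and *Tyrobp*), and 1 was called, where 1.87% of the 9022 genes tested were called. Calls needed a log2 fold change beyond 0.1 in either direction and a Benjamini-Hochberg adjusted p below 0.05 over all genes tested (edgeR quasi-likelihood test). *Axl* passed the filter through the WT DMXAA group alone, since every other group had at most 4 UMIs per library, so that its call is no count over the members. These p-values measure the spread between libraries.

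*Axl* gave 2, 1, 3 and 1 UMIs in microglia of WT vehicle replicates 1 to 4, and 39, 19, 17 and 16 UMIs with DMXAA. As CPM these were 3.13, 1.61, 4.88 and 1.42 against 53.9, 29.4, 19.7 and 21.2. The groups did not overlap, as for 5.7% of genes tested. *Axl* had a log2 fold change of 3.43 ± 0.49 (SE, adjusted p = 0.00071 by edgeR). From the pooled counts, 91 against 7, the ratio was 11.2, with an exact 95% interval of 5.23 to 28.7 that covers counting error only.

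More nuclei held an *Axl* UMI after DMXAA. In WT vehicle microglia the share was 0.459% ± 0.192 (SD, n = 4), and with DMXAA it was 5.45% ± 2.40. Thinned to 1000 UMIs per nucleus, the shares were 0.227% ± 0.153 and 2.91% ± 1.80. Excitatory neurons, which should lack *Axl*, had 0.287% and 0.33% of nuclei with a UMI, or 0.0150% and 0.0467% after thinning, at library medians of 7648.5 to 10387 UMIs per nucleus against 1583 to 2144.5 in microglia. Of the 80 WT DMXAA nuclei with *Axl*, 33, 17, 17 and 13 came from replicates 1 to 4.

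Markers of other *Axl*-bearing cells were read in the same microglial sums. The 8 fibroblast markers summed to 17.0 to 25.7 CPM in WT vehicle and 17.2 to 27.8 CPM in WT DMXAA microglia, and the 6 markers of oligodendrocyte precursors to 51.7 to 167 and 30.9 to 287 CPM. The 7 astrocyte markers summed to 360 to 491 CPM in WT vehicle and 406 to 509 CPM in WT DMXAA microglia. The 8 border macrophage markers summed to 257 to 329 and 209 to 339 CPM, most of it *Stab1*. *Pf4*, *Cd163* and *Lyve1* had no UMI in either group, and *Mrc1* had 27 UMIs with vehicle and 49 with DMXAA. Nuclei of any class were also taken 1 by 1, with at least 3 microglial markers and none of the border macrophage list. Of these 3239 nuclei, 2837 were in the microglial cluster and the rest lay outside it. Their WT vehicle sum held 2754556 UMIs, against 2580010 for the cluster, so it is not of microglia alone. *Axl* had 3 UMIs there in the WT vehicle group and 62 in the WT DMXAA group, too few for the test.

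In KO microglia *Axl* gave 1, 0, 2 and 1 UMIs with vehicle and 1, 4, 2 and 3 with DMXAA, and the groups overlapped. Its log2 fold change was 1.12 ± 0.74 (SE, adjusted p = 0.878 by edgeR), and the ratio of pooled counts was 2.33, with an exact 95% interval of 0.672 to 10.2. The difference between the WT and KO effects was 2.31 ± 1.03 (log2, SE, adjusted p = 0.537 by edgeR), so the *Axl* response was not shown to differ between WT and KO.

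**Figure D2:**
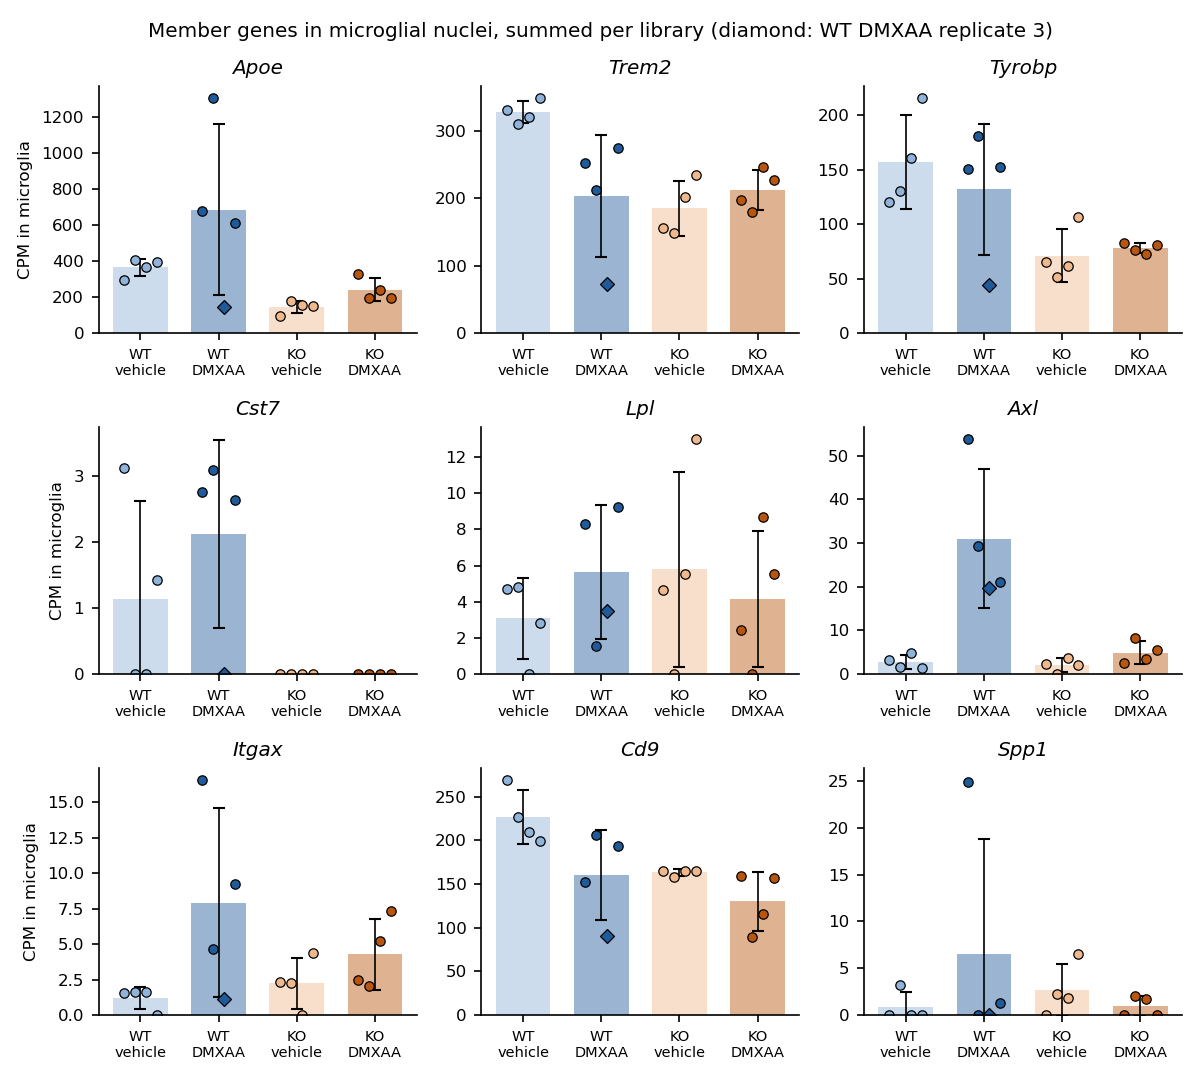
CPM of the 9 members in microglia by group, 1 point per library, with bars at the mean and error bars of 1 SD (n = 4). The WT DMXAA libraries lie above the WT vehicle libraries for *Axl*, at 19.7 to 53.9 against 1.42 to 4.88 CPM, and the diamond, WT DMXAA replicate 3, is lowest of its group for *Apoe*, *Trem2*, *Tyrobp*, *Cd9* and *Axl*.

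*Apoe*, the lipid carrier, was read at 294, 404, 364 and 393 CPM in WT vehicle microglia and at 679, 1307, 147 and 611 CPM with DMXAA. All DMXAA libraries but replicate 3 were above the vehicle range, and replicate 3 was below it. The log2 fold change was 0.91 ± 0.38 (SE, adjusted p = 0.393 by edgeR), not called. Without replicate 3 it was 1.24 ± 0.20 (SE, adjusted p = 8.38e-05 by edgeR), called, where 7.33% of genes tested were called. Without WT DMXAA replicate 2, the highest library, it was 0.41 ± 0.33 (SE, adjusted p = 0.726 by edgeR).

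Replicate 3 was low in *Apoe* beyond microglia. In astrocytes it had 749 CPM, against 3795 to 4697 CPM in the other WT DMXAA libraries, and in excitatory neurons it had 15.8 CPM against 66.7 to 81.6 CPM. Without it, the WT *Apoe* change was 0.25 ± 0.11 in astrocytes, 0.27 ± 0.13 in oligodendrocyte precursors, 0.27 ± 0.14 in excitatory neurons and 0.16 ± 0.15 in oligodendrocytes (log2, SE), none of them called, and the difference from microglia was not tested.

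The 10% of nuclei with the most *Apoe* held 46.9% to 59.6% of its UMIs in WT vehicle and 41.8% to 63.0% in WT DMXAA libraries. Single nuclei held up to 54 of 277 UMIs (WT vehicle replicate 4) and 57 of 462 UMIs (WT DMXAA replicate 4). In WT vehicle microglia 3 to 6 nuclei per library held 5 or more *Apoe* UMIs, and in WT DMXAA replicates 1 to 4 these were 25, 52, 3 and 11 nuclei. The share of nuclei with a UMI was 40.7% ± 4.73 with vehicle and 52.2% ± 21.9 with DMXAA, and 25.1% ± 2.59 and 35.5% ± 17.9 after thinning (SD, n = 4). Excitatory neurons of the same libraries had 36.0% and 34.3%, or 6.46% and 6.39% after thinning. With the CPM of excitatory neurons taken off in each library, the WT *Apoe* difference, DMXAA minus vehicle, was 323 CPM, against 322 CPM before. The part of free RNA in the microglial level was not tested otherwise.

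In KO microglia *Apoe* was read at 95.2, 178, 156 and 148 CPM with vehicle and 329, 197, 239 and 193 CPM with DMXAA. Every DMXAA library was above every vehicle library. In this comparison 5.77% of genes tested did not overlap, in either direction. Neurons moved the same way, at 21.5 to 30.02 CPM with vehicle and 30.5 to 38.2 CPM with DMXAA in excitatory and 23.1 to 37.3 against 40.0 to 55.5 CPM in inhibitory neurons. A UMI of *Apoe* was held by 20.6% and 27.0% of KO microglia and by 20.9% and 27.5% of KO excitatory neurons, or 11.6% and 17.3% against 2.83% and 4.08% after thinning. With the CPM of excitatory neurons taken off in each library, the KO difference was 85.8 CPM (two-sided exact permutation p = 0.0571). Before that it was 95.5 CPM (two-sided exact permutation p = 0.0286). In KO, a change in free RNA and one in microglial *Apoe* cannot be told apart. On the log2 scale the change was 0.68 ± 0.41 (SE, adjusted p = 0.877 by edgeR), not called. The WT and KO effects differed by 0.22 ± 0.55 (log2, SE, adjusted p = 0.934 by edgeR), or by 0.58 ± 0.30 (adjusted p = 0.538 by edgeR) without WT DMXAA replicate 3.

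KO astrocytes had *Apoe* at 1802 to 2241 CPM with DMXAA and 1158 to 1494 CPM with vehicle, a change that was not called (0.63 ± 0.32, SE, adjusted p = 0.873 by edgeR). The fit pools the spread of all libraries, and leaving out WT DMXAA replicate 3 gave 0.63 ± 0.10 (SE, adjusted p = 0.0104 by edgeR), a call, where 0.492% of genes tested were called.

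**Figure D3:**
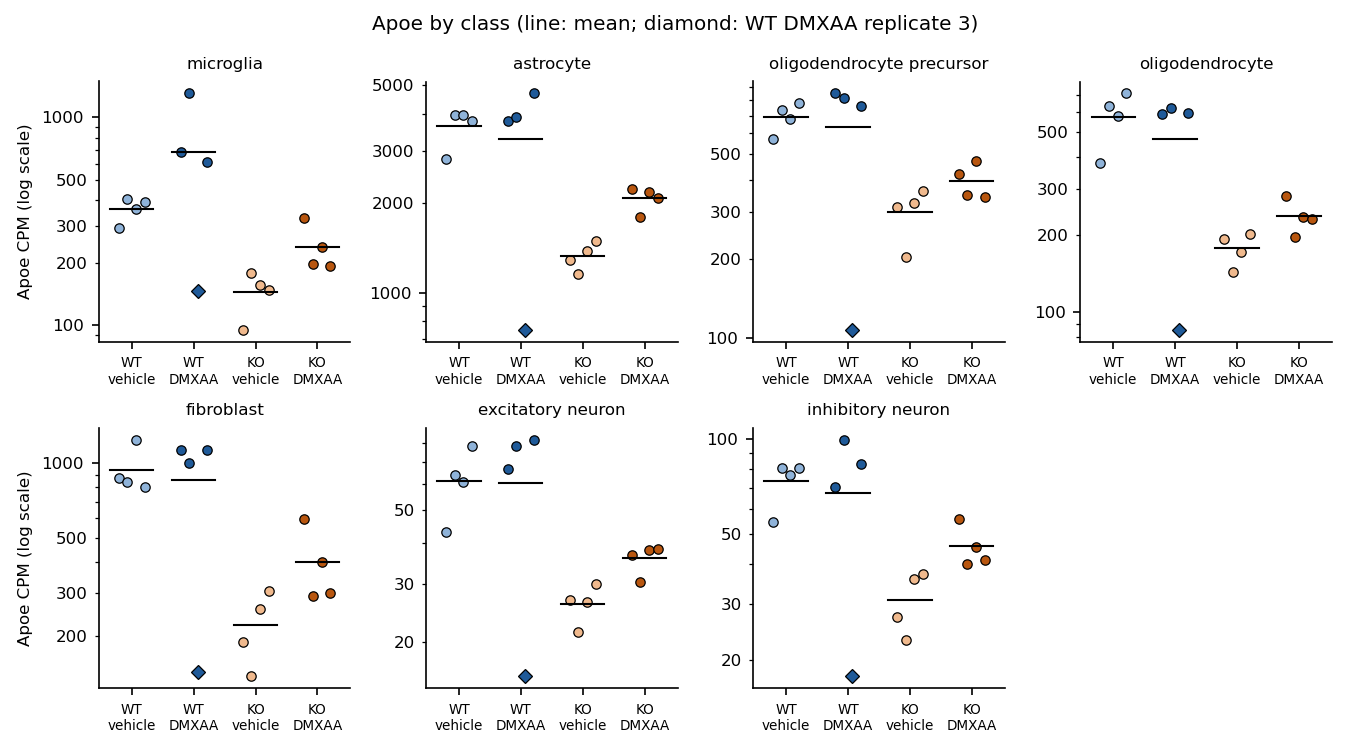
CPM of *Apoe* in the 7 classes fitted (log axis), 1 point per library, with a line at each group mean. WT DMXAA replicate 3, the diamond, is the lowest WT library in each class, at 15.8 CPM in excitatory neurons and 749 CPM in astrocytes, and the KO vehicle mean lies below the WT vehicle mean in each class.

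The receptor TREM2 and its adaptor did not rise. *Trem2* was read at 332, 310, 320 and 349 CPM in WT vehicle microglia and at 253, 212, 72.9 and 275 CPM with DMXAA. Every DMXAA library was thus below every vehicle library, where 5.7% of genes tested did not overlap, in either direction. The log2 fold change was -0.68 ± 0.25 (SE, adjusted p = 0.268 by edgeR), not called. Without WT DMXAA replicate 3 it was -0.41 ± 0.13 (SE, adjusted p = 0.0603 by edgeR), also not called. In nuclei taken 1 by 1 on their markers, some of them outside the microglial cluster, it was -0.72 (adjusted p = 0.0452 by edgeR), called. In 24 of the 25 alternatives tried, *Trem2* was not called.

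KO microglia had *Trem2* at 155, 149, 202 and 234 CPM with vehicle and 198, 180, 246 and 227 CPM with DMXAA, overlapping groups with a log2 fold change of 0.16 ± 0.26 (SE, adjusted p = 0.935 by edgeR). The WT and KO effects on *Trem2* differed by -0.85 ± 0.36 (SE, adjusted p = 0.53 by edgeR). *Tyrobp* was read at 121, 130, 161 and 216 CPM in WT vehicle and 151, 181, 44.0 and 152 CPM in WT DMXAA microglia. These groups overlapped, and the log2 fold change was -0.25 ± 0.29 (SE, adjusted p = 0.865 by edgeR), or 0.03 ± 0.18 without WT DMXAA replicate 3. In KO microglia the *Tyrobp* value was 0.10 ± 0.33 (SE, adjusted p = 0.976 by edgeR).

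*Cd9* was read at 269, 227, 210 and 199 CPM in WT vehicle and 152, 206, 90.3 and 193 CPM in WT DMXAA microglia. The highest DMXAA library overlapped the vehicle group. The log2 fold change was -0.48 ± 0.20 (SE, adjusted p = 0.383 by edgeR), or -0.30 ± 0.15 without WT DMXAA replicate 3, not called in either fit. In KO microglia it was -0.37 ± 0.21 (SE, adjusted p = 0.877 by edgeR). The median log2 fold change of the 5 members tested was -0.25 in WT and 0.16 in KO microglia, beside 0.02 and 0.00 over all genes tested. The negative WT median rests on WT DMXAA replicate 3. Without it the 5 WT values were -0.41, -0.30, 0.03, 1.24 and 3.57.

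**Figure D4:**
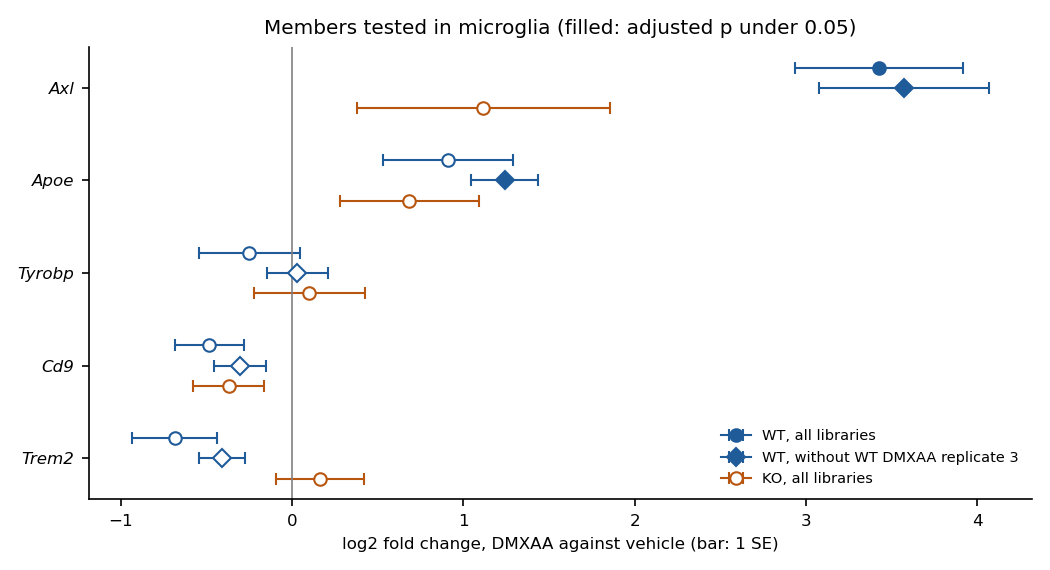
Log2 fold change of the 5 members tested in microglia, DMXAA against vehicle, with bars of 1 SE and filled markers for called values. *Axl* is called in WT with all libraries at 3.43 and without WT DMXAA replicate 3 at 3.57, *Apoe* is called in WT without that library at 1.24, and no KO value is called.

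*Itgax*, *Spp1*, *Lpl* and *Cst7* were too low for the fit. Their CPM values, 4 libraries against 4, went into two-sided exact permutation tests, for which the smallest possible p is 0.0286. None of the 7 comparisons with a UMI reached it. *Itgax*, the integrin CD11c, had 1, 1, 1 and 0 UMIs in WT vehicle and 12, 3, 1 and 7 in WT DMXAA microglia. All DMXAA libraries but replicate 3 were above the vehicle libraries, and the ratio of pooled counts was 6.61, with an exact 95% interval of 2.00 to 34.4 (exact permutation p = 0.114). KO microglia had 4 *Itgax* UMIs with vehicle and 9 with DMXAA (exact permutation p = 0.229). With nuclei taken by their markers the KO counts were 8 and 7, or 5.55 and 4.25 CPM, the opposite direction, and 8 and 8 with doublets kept. That choice also takes nuclei outside the microglial cluster, which itself held 4 with vehicle, so the turn is not one of microglia alone.

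*Spp1* had 2 UMIs in the WT vehicle group and 19 in the WT DMXAA group (exact permutation p = 0.714), of which 18 were from replicate 1. *Spp1* had 5 and 2 UMIs in KO (exact permutation p = 0.286). *Lpl* had 8 and 17 UMIs in WT and 11 and 9 in KO microglia (exact permutation p = 0.257 and 0.657). *Cst7* had 3 and 6 UMIs in WT microglia (exact permutation p = 0.486) and none in KO microglia, over 1874799 UMIs with vehicle and 2013109 with DMXAA, where a count of 0 allows up to 3.

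Members other than *Apoe* were counted together in single nuclei. In WT vehicle libraries 24.9% to 29.9% of microglia held at least 2 of these 8 genes, and 10.3% to 13.6% after thinning. WT DMXAA replicate 3 had 7.02%, or 1.78% after thinning, and the other WT DMXAA libraries had 26.7% to 28.0%, or 9.78% to 11.4% after thinning. Of the 80 WT DMXAA nuclei with *Axl*, 50 also held *Apoe* (62.5%, against 50.3% of the 1393 nuclei without *Axl*), and their median depth was 2108 UMIs against 1937. Of the 20 nuclei with *Itgax*, 3 held *Axl*. Nuclei of 1 library are not replicates, and these shares are given without a test.

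In KO microglia 0 of the 5 members were called after DMXAA by edgeR, with 0 at an unadjusted p under 0.05 and 0 called by DESeq2. Over all genes 0% of 9022 were called there, and without WT DMXAA replicate 3 1.43% were called and no member. Inhibitory neuron markers summed to 132 to 169 CPM in KO DMXAA microglia, below the KO vehicle range of 234 to 466 CPM, and their part in the KO values was not tested. The difference between the WT and KO effects was called by edgeR for 0 of the 5 members, with 2 at an unadjusted p under 0.05 and 0 called by DESeq2, and for 0.133% of genes tested.

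Without DMXAA, KO microglia had less *Tyrobp* than WT microglia. It was read at 65.0, 51.8, 61.2 and 106 CPM in KO vehicle libraries and at 121 to 216 CPM in WT vehicle libraries. The log2 fold change was -1.02 ± 0.31 (SE, adjusted p = 0.0386 by edgeR), and it was the 1 member of 5 called, where 14.5% of genes tested were called. The call was lost without WT vehicle replicate 2, 3 or 4, KO vehicle replicate 1, 2 or 3, or KO DMXAA replicate 1, 3 or 4, with adjusted p from 0.0502 to 0.114 by edgeR. Markers of other cells moved with genotype in the same sums. The 8 inhibitory neuron markers summed to 234 to 466 CPM in KO vehicle and 75.6 to 126 CPM in WT vehicle microglia, and the 7 astrocyte markers to 493 to 558 and 360 to 491 CPM. Their part in the KO against WT differences was not tested.

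*Apoe* (-1.21 ± 0.40, SE, adjusted p = 0.0518 by edgeR) and *Trem2* (-0.70 ± 0.25, SE, adjusted p = 0.0683 by edgeR) missed the threshold in the same comparison. DESeq2 called both, at adjusted p of 0.0407 and 0.032, and so did edgeR without WT DMXAA replicate 3, where 31.9% of genes were called. *Cd9* (-0.35 ± 0.20) and *Axl* (-0.22 ± 0.79) were not called in either fit.

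*Apoe* counts were lower in KO vehicle than WT vehicle tissue in the sums of the 6 other classes too, each of them called with adjusted p from 0.00808 to 0.0369 by edgeR. The log2 fold change was -1.31 ± 0.32 (SE) in astrocytes, where 29.8% of genes were called, and -2.03 ± 0.43 in fibroblasts, where 9.92% were. In oligodendrocytes it was -1.54 ± 0.39 (29.7% called), in their precursors -0.999 ± 0.34 (25.7%), in inhibitory neurons -0.87 ± 0.30 (40%) and in excitatory neurons -0.77 ± 0.29 (49.4%). *Cd9* was lower in oligodendrocytes (-0.63 ± 0.18). Calls also fell on *Cd9* in inhibitory neurons (-1.71 ± 0.44), on 59 UMIs in the WT vehicle and 14 in the KO vehicle group, and on *Trem2* in excitatory neurons (-1.29 ± 0.44), where 0.546% of WT vehicle and 0.195% of KO vehicle nuclei held a UMI. At these levels, and at the *Apoe* levels of both neuron classes, UMIs from free RNA cannot be told apart from expression. An *Apoe* UMI was held by 40.7% of WT vehicle and 20.6% of KO vehicle microglia, and by 36.0% and 20.9% of excitatory neurons. After thinning these shares were 25.1% and 11.6%, and 6.46% and 2.83%. The part of free RNA in the *Apoe* differences of microglia and the other glial classes was not tested.

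Outside microglia, DMXAA moved no member past the threshold in either genotype with all libraries in the fit, and astrocyte *Apoe* in KO was called without WT DMXAA replicate 3, as given above. With all libraries, 0 of 20 tests of a member in a class were called by edgeR in WT, with 2 at an unadjusted p under 0.05, and 0 of 20 in KO, with 0 at that p. DESeq2 called 0 in both. In WT tissue 0.113% of all genes were called in excitatory neurons, 0.262% in astrocytes, 0.0248% in oligodendrocytes, 0.175% in their precursors and 0% in inhibitory neurons and fibroblasts, and in KO tissue 0% in each class.

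Both WT tests with an unadjusted p under 0.05 were of *Axl*. In astrocytes it was read at 43.4 to 51.0 CPM with vehicle and 28.0 to 40.8 CPM with DMXAA (-0.31 ± 0.12, SE, adjusted p = 0.664 by edgeR). In fibroblasts *Axl* was 10.9 to 56.8 CPM with vehicle and 30.6 to 87.9 CPM with DMXAA, overlapping groups (0.92 ± 0.36, SE, adjusted p = 0.761 by edgeR). *Spp1* in fibroblasts was 40.7 to 173 and 46.0 to 375 CPM (1.16 ± 0.57, SE, adjusted p = 0.799 by edgeR).

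With all libraries in the fit, other genes of the DAM program gave 2 calls in WT microglia, where 1.87% of all genes tested were called. Of 5 further early DAM genes, 4 were tested and *B2m*, the light chain of MHC class I, rose (1.21 ± 0.24, log2, SE). Of 20 further late DAM genes, 11 were tested and *H2-D1*, an MHC class I heavy chain, rose (2.25 ± 0.42). Both are also interferon-stimulated genes. The list medians were 0.12 and -0.23, beside 0.02 over all genes tested. These and the list medians below include WT DMXAA replicate 3 and are not given without it.

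Among 14 homeostatic genes, all tested, *Fcrls* (-1.40 ± 0.22) and *Sparc* (-0.78 ± 0.19) fell, and the list median was -0.45. The summed homeostatic level was 12818 to 16267 CPM in WT vehicle and 5377 to 11488 CPM in WT DMXAA microglia, groups that did not overlap. In KO microglia it was 10253 to 12720 CPM with vehicle and 11261 to 12847 CPM with DMXAA. Without WT DMXAA replicate 3, the purinergic receptors *P2ry12* (-0.40 ± 0.11) and *P2ry13* (-0.70 ± 0.21) and the lysophospholipid receptor *Gpr34* (-0.51 ± 0.13) were called lower as well, names chosen after their values were seen.

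With all libraries, lists drawn around single members gave 3 calls. Of 17 signalling genes downstream of TREM2, TYROBP and CLEC7A, 15 were tested and *Pik3ap1*, a PI3-kinase adaptor, rose (0.73 ± 0.15; list median 0.14). Among 10 integrin partners of *Itgax* and *Spp1*, 7 were tested, and *Itgb3* (-1.65 ± 0.26) and *Itga9* (-0.50 ± 0.12) fell (list median -0.24). With all libraries, no gene was called by edgeR among 3 tested AXL ligands and kin (median -0.20), 11 genes of lipid handling around *Apoe* and *Lpl* (-0.06), 6 proteases under cystatin control (0.31) and 6 tetraspanin partners of *Cd9* (-0.13). Without WT DMXAA replicate 3, 20 of the other listed genes were called in WT, where 7.33% of all genes tested were. Among those not named elsewhere, *Gas6* (-0.79 ± 0.23), *Lrp1* (-0.54 ± 0.15), *Serpine2* (-0.77 ± 0.21) and *Cst3* (-1.01 ± 0.21) were lower. *Csf1* (1.87 ± 0.48), *Cd52* (2.18 ± 0.41), *Ctss* (0.77 ± 0.12), *Ctsc* (0.82 ± 0.16) and *Ctsh* (0.82 ± 0.15) were higher. Over these lists and the blood cell markers described next, 8 of 76 genes tested were called in WT by edgeR, with 29 at an unadjusted p under 0.05, and 15 were called by DESeq2. Over all 9022 genes tested, 169 were called by edgeR in this comparison, or 1.87%, and 902 had an unadjusted p under 0.05. In KO microglia 0 of the 76 were called by edgeR, with 6 at an unadjusted p under 0.05 and 0 called by DESeq2. Of the 8 WT calls, DESeq2 kept 8, while 1 remained with 1 genotype fitted alone and 4 without WT vehicle replicate 3.

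As a check of the treatment, all 9 tested of 12 interferon-stimulated genes rose in WT microglia, with a median of 2.75, and 0 were called by edgeR in KO microglia, with a median of 0.00. UMIs were seen for 6 to 7 of the 12 genes per KO vehicle library and for 5 to 7 per KO DMXAA library. A gene without UMIs in both KO groups could not be called in KO, and the 12 genes were chosen with earlier results known. Of 10 markers of infiltrating blood cells 1 passed the filter, *Csf3r*, which had group means of 565 to 777 CPM in microglia, and it rose in WT (0.44 ± 0.09). *Plac8* had 4 UMIs in WT vehicle and 40 in WT DMXAA microglia, *S100a8* 0 and 4, *S100a9* 1 and 4, *Ccr2* 17 and 3, and *Ly6c2* none. Their part in the member results was not tested.

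**Figure D5:**
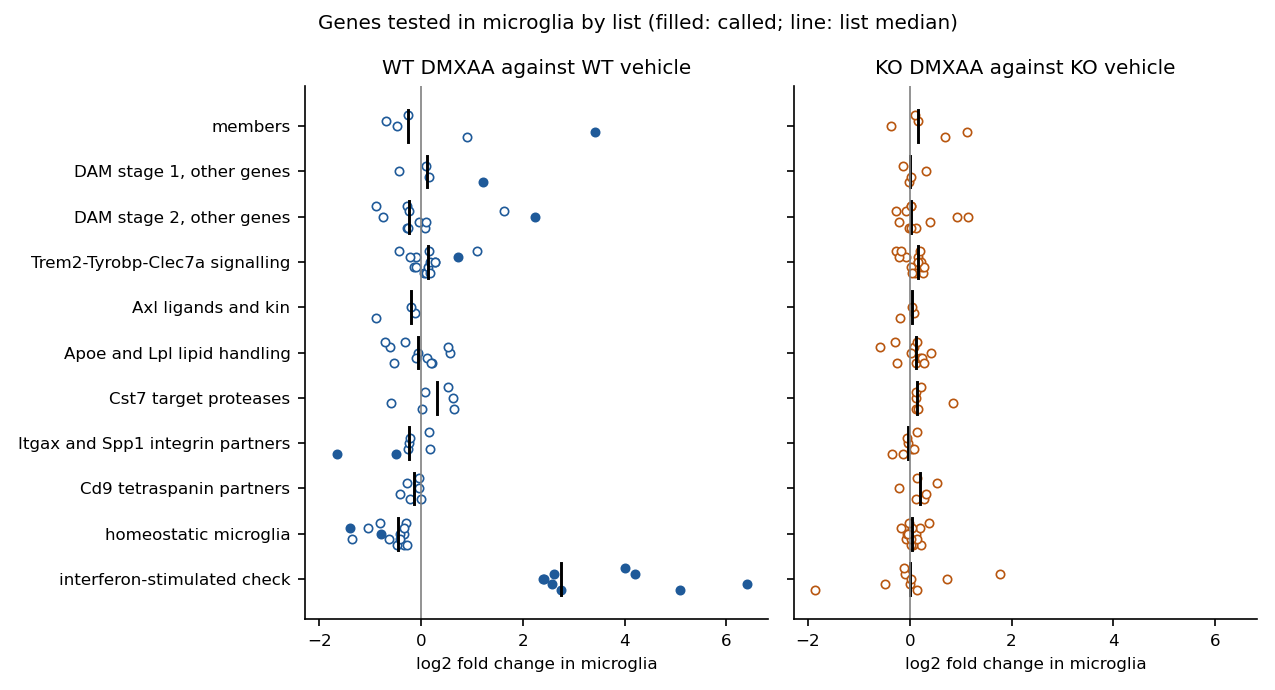
Log2 fold change in microglia of every gene tested in each list, for WT (left) and KO (right), with filled points for called genes and a line at the list median. All 9 interferon-stimulated genes are called in WT, at 2.39 (*Trim30a*) to 6.41 (*Oasl2*), and no gene shown is called in KO.

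In KO vehicle against WT vehicle microglia, 17 of the 76 other listed genes tested were called, 13 higher and 4 lower. Over all genes tested 14.5% were called, 679 higher and 627 lower. The 5 with the greatest fold changes were *H2-D1* (-1.88 ± 0.54, log2, SE), the retinoid X receptor *Rxra* (1.67 ± 0.41), the pyrophosphate transporter *Ank* (1.10 ± 0.33), the tetraspanin *Cd37* (-0.98 ± 0.30) and *Gpr34* (-0.94 ± 0.27). Of the 15 tested signalling genes around TREM2 and TYROBP, 6 were higher in KO, among them *Pik3cd* (0.69 ± 0.12) and *Vav1* (0.64 ± 0.11), the direction opposite to that of *Tyrobp*.

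Across the 16 microglial sums, the genes whose log2 CPM was most like a member's were sought among 7278 genes with a mean of at least 20 CPM. *Axl* was closest to *Tap1* (Pearson r = 0.93), *Ifi207* (0.91) and *Zc3hav1* (0.89). *Trem2* was closest to *Gpr34* (0.98), *1700066B19Rik* (0.94) and *Gm46367* (0.93). *Apoe* was closest to *Slc50a1* (0.94), *Gm42917* (0.94) and *Snrk* (0.94). The 16 points share groups and depth, so these are descriptions.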

How the data were processed

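The authors deposited UMI counts per gene and barcode for 16 libraries (10x 3′ v3.1, mm10, introns included); the submitters' processing notes name Cell Ranger 3.1.0 and Seurat 3.0. Of 155084 barcodes, nuclei with 200 to 4000 genes and at most 5% mitochondrial UMIs were kept, after removing as doublets 0.8% of nuclei per 1000. Leiden clusters (leidenalg 0.10.2) were named from fixed markers, with thresholds set after the clusters were seen; 9.35% of nuclei stayed unnamed, and names may differ from those of the study. Groups followed the treatment and genotype labels. The 7 classes with at least 20 nuclei in every library were summed and tested by edgeR 4.0.16 (quasi-likelihood, TMM, filterByExpr, Benjamini-Hochberg) over all 16 libraries. DESeq2 1.42.0, other scalings, filters, choices of nuclei and each library left out were tried. The fit was tested on simulated data. Genes were placed by GENCODE on GRCm38. All members are named, and of the other listed genes at most the 12 called with the greatest fold change per comparison; called genes beyond these were added after their values were seen. The members and lists were chosen with earlier results of these data known. Intervals cover counting error only.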

Additional observations from a re-analysis of the deposited data

Results flagged for a closer look

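In 138 groups of 4 libraries, 8 values stood far from the other 3 libraries of their group by Dixon's test, which chance does in about 1 in 20 groups. WT DMXAA replicate 3 had the lowest *Apoe* level in fibroblasts (143 CPM, next 1003), oligodendrocytes (85.1 CPM, next 591) and oligodendrocyte precursors (107 CPM, next 763). WT vehicle replicate 1 had the lowest *Apoe* level in astrocytes (2826 CPM, next 3804) and inhibitory neurons (54.4 CPM, next 76.5). WT vehicle replicate 3 had the highest in fibroblasts (1244 CPM, next 874). In microglia, *Cd9* was lowest in KO vehicle replicate 2 (158 CPM, next 165), and *Spp1* was highest in WT DMXAA replicate 1 (24.9 CPM on 18 UMIs, next 1.32 CPM).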

How the results depend on the processing

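The WT call of *Axl* held in the 23 alternatives that could test it, at log2 fold changes of 3.05 to 3.8. Of these, 16 left out 1 library. *Axl* passes the filter through the WT DMXAA group, and these are refits of the same libraries, so they are no independent support. With each library left out in turn, 1 to 2 members were called in WT microglia (2 without WT DMXAA replicate 3). *Axl* was among them each time, so these are no counts over the members. In KO against WT vehicle microglia 0 to 3 members were called. The genes called in all ranged from 112 to 673 in WT and from 626 to 2929 in KO against WT (169 and 1306 with all libraries). With nuclei taken by markers and doublets kept, 0 members were called in WT, as *Axl* fell under the filter. With doublets removed the 1 call was *Trem2*. Nuclei taken by markers include some from outside the microglial cluster, so fits of them are not of microglia alone. For KO against WT vehicle, 3 members were called by DESeq2, with library totals and with no filter (1613, 1429 and 1510 of all genes), 2 after clustering without the lists (1342 genes) and 0 by marker choice (1502 genes, *Tyrobp* -0.74, adjusted p = 0.0691 by edgeR), where *Cd9* turned to 0.22 from -0.35. Of the other listed genes, 15 were called in WT by DESeq2, which kept the 8, 1 with one genotype alone, and 4 to 20 with a library left out: 4 without WT vehicle replicate 3, 5 without WT vehicle replicate 2 or WT DMXAA replicate 2, and 20 without WT DMXAA replicate 3. Calls of a member in other classes in KO ranged from 0 to 1 with a library left out, the 1 being astrocyte *Apoe* without WT DMXAA replicate 3. The causes were not tested. No paired analysis was possible because the replicate numbers only name libraries. Depth limits *Itgax*, *Lpl*, *Spp1* and *Cst7*, with at most 23 UMIs per group in microglia.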

Other observations

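Border macrophages, read in 4 to 115 nuclei per library, were too few for the fit. Their *Axl* gave 3, 1, 1 and 1 UMIs in WT vehicle replicates 1 to 4 and 9, 5, 2 and 2 in WT DMXAA replicates, from 10, 4, 5 and 10 and from 15, 17, 115 and 6 nuclei. *Itgax* gave no UMI in WT vehicle and 2, 2, 2 and 1 in WT DMXAA border macrophages. *Spp1* gave none and 6, 1, 1 and 5. In the 115 nuclei of WT DMXAA replicate 3, *Apoe* was read at 567 CPM, against 5512 to 11940 CPM in the 6 to 17 nuclei of the other WT DMXAA libraries. It was read at 1338 to 8110 CPM in WT vehicle, 1957 to 4918 CPM in KO vehicle and 3708 to 6881 CPM in KO DMXAA libraries, ranges that overlap. The same 115 nuclei had *Axl* at 8.79 CPM and *Trem2* at 17.6 CPM. The other WT DMXAA libraries had 73.9 to 268 CPM of *Axl* and 59.1 to 202 CPM of *Trem2*. In the clustering without the lists, the next-best name of this cluster was neutrophil or monocyte. Whether the 115 nuclei hold other myeloid cells was not tested.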
